A study of Bubalus bubalis with 6 samples.

Results

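PEG10, SGCE and IGF2R are imprinted genes whose DNA methylation mark is laid down in the oocyte. They were read here in buffalo sperm through the array probes that carry their names: 37 of the 177440 probes, with 25 for PEG10, 7 for SGCE and 5 for IGF2R. The series compared sperm DNA methylation of high-fertile and subfertile water buffalo (Bubalus bubalis) bulls. DNA from cryopreserved semen was sheared, fragments bound by an antibody against 5-methylcytosine were collected (methylated DNA immunoprecipitation, meDIP), and the immunoprecipitated DNA (Cy5) was put on a CpG island and promoter array together with untreated input DNA of that bull (Cy3). The high-fertile group held the bulls labelled HF2, HF3 and HF5 and the subfertile group those labelled SF1, SF4 and SF5, 1 array per bull. All 6 samples were labelled sperm, and the labels name no treatment, no age and no measure of fertility.

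Genomic imprinting is the expression of a gene from only the maternal or only the paternal copy, and it rests on DNA methylation set differently in oocyte and sperm. PEG10 encodes a protein derived from a retrotransposon that the placenta needs. SGCE encodes epsilon-sarcoglycan, a membrane protein, and lies head to head with PEG10, with which it shares a maternally methylated promoter island in human and mouse. IGF2R encodes the receptor that clears insulin-like growth factor 2 and sorts mannose 6-phosphate tagged enzymes, and a maternally methylated island lies inside the gene. In human and mouse sperm these islands carry little methylation. The buffalo array files do not say which probes lie in such an island, promoter, exon or intron. The values below therefore describe the named probes and not the imprinting control regions.

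The measure is log2 of the immunoprecipitated over the input signal, log2(IP/input), set to 0 at the median of all probes on the same array. It ranks DNA by how much the antibody bound and is not a percentage of methylated cytosines. A probe was tested where every array showed its input clearly above background, and 30 of the 37 probes passed (21 of PEG10, 6 of SGCE and 3 of IGF2R), as did 110686 of all probes. A gene region is the mean of the tested probes that share a gene name, where there were 3 or more, and 737 genes had one. Coordinates are those in the probe names, and their genome build is not stated in the sources used. The highest chromosome number in the probe names is 29. No position was matched to a buffalo assembly, so the chromosome numbers given here are not to be read as buffalo chromosomes. Arrays parted by scan date: HF2, HF3 and SF4 were scanned on the first date and HF5, SF1 and SF5 on later dates. The later arrays were not alike: HF5 and SF5 shared the last date and a slide of their own. SF1 was scanned on a date between and lay on the other slide, with the first-date arrays. Date and slide thus overlap in part. The share of probes with immunoprecipitated signal well above background was 37.6% to 58.6% on the first-date arrays and 76.5% to 85.2% on the later ones. The first date held 2 high-fertile bulls and 1 subfertile bull and the later dates the reverse, so each group difference is also given with the date as a block.

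The sequences on which the results turn are printed from the array files, with each CpG, the main site of DNA methylation in mammals, in capitals. All are 60 bases long. Overlapping SGCE and PEG10 probes share letters along rising coordinates in every overlapping pair (3 of 3 and 16 of 16), so the letters run in the direction of the coordinates. The 6 tested SGCE probes lie on chromosome 4 from base 12306375 to 12306784, and they are shown because all 6 read below the array median in every bull.
SGCE probe 1, chr4:12306375-12306434: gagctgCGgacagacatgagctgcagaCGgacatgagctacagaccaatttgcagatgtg
SGCE probe 2, chr4:12306485-12306544: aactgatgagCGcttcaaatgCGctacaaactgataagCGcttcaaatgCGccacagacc
SGCE probe 3, chr4:12306615-12306674: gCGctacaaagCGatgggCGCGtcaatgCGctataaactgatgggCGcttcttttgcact
SGCE probe 4, chr4:12306650-12306709: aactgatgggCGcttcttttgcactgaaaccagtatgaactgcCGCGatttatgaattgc
SGCE probe 5, chr4:12306685-12306744: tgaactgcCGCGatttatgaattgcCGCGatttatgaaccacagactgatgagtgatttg
SGCE probe 6, chr4:12306725-12306784: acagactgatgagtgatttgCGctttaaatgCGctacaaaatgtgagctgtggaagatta
These 6 probes held 21 CpGs, 2 to 6 each, and overlap in part, so a CpG can be counted in more than 1 probe. Short phrases recur in them. Phrases taken from probes 2 and 3 were searched on both strands, and none of them contains another. The letters GCGCTACAAA stood in 3 of the 7 SGCE probes and in 29 of the 177440 probes (0.0163%). Of those 29 probes, 15 were SGCE probes or unnamed probes counted with SGCE below. The letters CTGATG stood in 5 SGCE probes (3.21% of all probes) and GCGCTTC in 3 (0.809%), and GCGCTTC also stood in 1 PEG10 probe. The matches describe the letters only.

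PEG10 had the longest run of probes, from base 12313019 to 12314538 of chromosome 4 in the probe names. The RefSeq gene table of buffalo (assembly NDDB_SH_1), used for names and gene order only, lists PEG10 next to SGCE. Shown here are the probe with its highest mean and the only one below the array median in all 6 bulls.
PEG10 probe 4, chr4:12313139-12313198: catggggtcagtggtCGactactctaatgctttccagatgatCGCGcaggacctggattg
PEG10 probe 17, chr4:12314259-12314318: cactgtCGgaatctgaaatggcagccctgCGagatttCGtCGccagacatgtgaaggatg
The 3 tested IGF2R probes are scattered over chromosome 9, the first and last of them from base 100104487 to 100126112. All 3 are shown because 1 of them, probe 3, was the highest in every bull but HF5.
IGF2R probe 2, chr9:100104487-100104546: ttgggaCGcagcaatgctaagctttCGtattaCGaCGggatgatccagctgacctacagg
IGF2R probe 3, chr9:100119172-100119231: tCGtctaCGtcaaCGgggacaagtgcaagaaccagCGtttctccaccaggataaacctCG
IGF2R probe 4, chr9:100126053-100126112: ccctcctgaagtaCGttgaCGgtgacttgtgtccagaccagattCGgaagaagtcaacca

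Within every bull the 3 genes stood in the same order, with SGCE lowest, PEG10 between and IGF2R highest. The SGCE region was -0.93 in HF2, -0.47 in HF3, -0.91 in HF5, -0.72 in SF1, -0.71 in SF4 and -0.73 in SF5. All 6 bulls were below the array median, as were 30.3% of the 737 regions, and the mean was -0.74 ± 0.17 (SD, n = 6 bulls). The PEG10 region was -0.39 in HF2, -0.21 in HF3, 0.38 in HF5, 0.27 in SF1, -0.23 in SF4 and 0.27 in SF5. It was below the array median in the 3 bulls scanned first and above it in the 3 scanned later, with a mean of 0.02 ± 0.33 (SD, n = 6). The IGF2R region was 0.21 in HF2, -0.05 in HF3, 0.40 in HF5, 0.45 in SF1, 0.05 in SF4 and 0.64 in SF5, and only HF3 was below the array median. Regions above the array median in all 6 bulls were 1.49% of all. The mean of IGF2R was 0.28 ± 0.26 (SD, n = 6). Its place above PEG10 leaned on 1 of its 3 tested probes, probe 3. In HF3 the IGF2R probes 2 and 4 were -0.41 and -0.73, both below the PEG10 region. In SF4 both were above it, at -0.04 and -0.20. In each of the other bulls probe 2 was above the PEG10 region and probe 4 below it.

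The differences between the genes were taken within each bull. PEG10 exceeded SGCE by 0.76 ± 0.39 (SD, n = 6), from 0.26 in HF3 to 1.29 in HF5. SGCE minus IGF2R was -1.03 ± 0.37, from -0.42 in HF3 to -1.37 in SF5. PEG10 was below IGF2R in 6 of 6 bulls as well (-0.27 ± 0.20), but by only -0.02 in HF5. In HF3 that order came from IGF2R probe 3 alone. Each of the 3 pairs gave p = 0.03125 in a 2-sided exact sign-flip permutation test over bulls, the smallest value 6 bulls allow, and the same value after adjustment over the 3 pairs. SGCE was below and IGF2R above the median of all gene regions in all 6 bulls, so for that pair this value was fixed. The 3 genes were chosen with earlier results known, and the share of all pairs of gene regions at this value was not counted. Probes of different sequence bind differently, so these are differences in array readout between genes, and no dye was swapped.

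Levels were next set against the other genes on the same array, where the median of all 737 gene regions was -0.35 in HF2, -0.23 in HF3, -0.12 in HF5, -0.09 in SF1, -0.25 in SF4 and -0.17 in SF5. SGCE minus that median was -0.55 ± 0.18 (SD), from -0.24 in HF3 to -0.79 in HF5. It was below in 6 of 6 bulls, as were 11.1% of all gene regions. In rank, SGCE stood at percentile 1.70 in SF1, 3.60 in HF5, 7.80 in HF2, 7.94 in SF5, 10.65 in SF4 and 30.3 in HF3. IGF2R was above the median region by 0.17 (HF3) to 0.81 (SF5), or 0.48 ± 0.22, in 6 of 6 bulls, where 7.19% of all regions were above it in all 6. Its percentiles ran from 64.2 in HF3 to 96.9 in SF5. PEG10 was above the median region in 5 of 6 bulls (0.22 ± 0.24), near it on the first date (percentiles 46.2 to 52.2) and well above it on the later dates (85.3 to 88.0). The exact sign-flip permutation test gave p = 0.03125 for SGCE and for IGF2R and p = 0.156 for PEG10. Adjusted over all 737 regions these became 0.171, 0.171 and 0.335, so none passed the threshold of 0.05, and the exact test called 0 of the 737 regions. With 6 bulls its smallest p, 0.03125, passes 0.05 after adjustment only where most regions share it. The test therefore could not single out a few regions, and no conclusion is drawn from the 0. The sizes moved with the processing. With normexp background correction they were -0.31 for SGCE, 0.24 for IGF2R and 0.074 for PEG10, and without the input filter -0.84, 0.25 and -0.14.

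The median log2(IP/input) varied with the number of CpGs in a probe, more in some bulls than in others. Members were therefore also set against the median of all tested probes with the same number of CpGs. In HF2 that median was -0.08 for probes without a CpG and -0.52 for probes with 6, and in SF1 it was -0.08 and -0.09. SGCE minus the median of probes with like CpG number was -0.55 ± 0.25 (SD), below in 6 of 6 bulls, and all 6 of its tested probes had a mean below it. PEG10 was above it by 0.20 ± 0.18 and IGF2R by 0.50 ± 0.17. Of the PEG10 probes 4 of 21 lay below the median of their CpG number, and of the IGF2R probes 0 of 3.

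SGCE read low at every tested probe. All 36 spots (6 probes in 6 bulls) were below 0, against 61 of 126 spots of PEG10 and 5 of 18 of IGF2R. All 6 SGCE probes were below the array median in all 6 bulls, as were 21.9% of all tested probes. Probe 3, with 6 CpGs the richest, was -1.18 in HF2, -0.39 in HF3, -1.07 in HF5, -1.29 in SF1, -0.78 in SF4 and -1.17 in SF5. HF3 was its highest bull and SF1 its lowest. Its input signal ran from 2320 (HF2) to 4632 (SF5) and its immunoprecipitated signal from 1045 (HF2) to 2448 (HF3), in units of scanner intensity, and the input was brighter than the immunoprecipitated signal in all 6 bulls. Probe 5, with 4 CpGs, was the most even: -0.46, -0.47 and -0.60 in HF2, HF3 and HF5 and -0.70, -0.66 and -0.64 in SF1, SF4 and SF5. Probe 2 was the lowest on average and the most scattered, at -1.83 in HF2 and -1.55 in HF5 but -0.56 in SF1 and -0.74 to -0.86 in the others. Its immunoprecipitated signal was well above background on only 3 of 6 arrays. Over the region, immunoprecipitated signal was above background at 15 of 18 spots in each group. Probe 7 stands apart at chr4:12310370-12310429, had input above background on 1 array and immunoprecipitated signal on none, and was not tested.

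The unnamed probes around SGCE gave the same picture. Within 5000 bases lay 47 probes without a gene name, and 43 were tested, from base 12305957 to 12306854. Their mean was -0.72 in HF2, -0.33 in HF3, -0.81 in HF5, -0.72 in SF1, -0.66 in SF4 and -0.84 in SF5. Of the 43, 34 were below the array median in all 6 bulls and 0 above it in all 6. These probes overlap the named ones and are not independent of them, and 2 carry the sequence of a named SGCE probe.

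PEG10 lay near the array median with a spread between probes. The means of its 21 tested probes ran from -0.51 to 0.42, 1 probe was below the median in all 6 bulls and none was above it in all 6. Probe 4 was -0.31 in HF2, 0.13 in HF3, 0.91 in HF5, 0.84 in SF1, -0.03 in SF4 and 0.98 in SF5. The 3 later bulls were thus high and the 3 first ones lower, from -0.31 to 0.13. Probe 17 was -0.86 in HF2, -0.64 in HF3, -0.16 in HF5, -0.34 in SF1, -0.43 in SF4 and -0.61 in SF5, low in all. Probe 6, 5 CpGs at chr4:12313719-12313778, was low in HF2 (-1.20) and HF3 (-0.90), intermediate in SF4 (-0.38) and SF5 (-0.39), and near 0 in HF5 (-0.13) and SF1 (0.06). Along the gene, the tested probes fall into 5 clusters. Their means on the first and the later dates were -0.21 and 0.31 for probes 1 to 4, -0.20 and 0.67 for probe 5 alone, -0.39 and 0.16 for probes 6 to 9, -0.38 and 0.31 for probes 10 to 12, and -0.23 and 0.33 for the last 9. Every cluster was below the array median on the first date and above it later. That median is over all probes, and the median of the tested probes alone lay lower, mostly so on the first date. It was -0.33 in HF2, -0.26 in HF3 and -0.26 in SF4, and -0.01 in HF5, -0.02 in SF1 and -0.10 in SF5. A value below 0 on the first date was thus usual for a tested probe. The 4 untested PEG10 probes (13, 14, 15 and 22) had means of 0.79 to 1.37, all above the tested ones, with input above background on 3, 3, 3 and 5 arrays. These values enter no comparison.

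The pattern along PEG10 repeated between the bulls scanned later and much less between those scanned first. Across its 21 tested probes, the correlation between bulls was 0.60 to 0.87 among HF5, SF1 and SF5, -0.23 to 0.23 among HF2, HF3 and SF4, and 0.14 to 0.39 between the sets. With the 100 tested unnamed neighbours added (121 probes) the ranges were 0.72 to 0.81, 0.18 to 0.30 and -0.08 to 0.24. Along SGCE with its neighbours (49 probes) they were 0.50 to 0.54, -0.01 to 0.29 and -0.26 to 0.26. These are correlations across overlapping probes, which are not independent and share base composition, and no test was made. For the 7 member probes whose sequence was also spotted without a name, the 2 spots differed by a median of 0.45 in HF2, 0.08 in HF3 and 0.43 in SF4, and of 0.21 in HF5, 0.19 in SF1 and 0.16 in SF5. The widest gap, 1.55, was at SGCE probe 6 in HF2 (-0.39 at the named spot).

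IGF2R was measured by few and distant probes, of which probe 3 was the highest in every bull but HF5. Probe 3 was 0.89 in HF2, 0.98 in HF3, 0.55 in HF5, 0.79 in SF1, 0.38 in SF4 and 1.02 in SF5. It was above the array median in all 6 bulls, as were 4.55% of all tested probes, and 1.04 above the median of probes with 5 CpGs on average. Its input signal was 879 (SF4) to 2360 (HF3) and its immunoprecipitated signal 1187 (SF4) to 4636 (HF3). Probe 2 was 0.15 in HF2, -0.41 in HF3, 0.58 in HF5, 0.30 in SF1, -0.04 in SF4 and 0.78 in SF5. Probe 4 was lower, at -0.39, -0.73 and 0.08 in HF2, HF3 and HF5 and at 0.27, -0.20 and 0.12 in SF1, SF4 and SF5. The high level of the region thus came mostly from probe 3. Probes 1 and 5 had input above background on 3 arrays and 1 array and were not tested. No unnamed probe lay within 5000 bases of an IGF2R probe.

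None of the 3 genes differed between high-fertile and subfertile bulls beyond the spread among bulls. The SGCE region was -0.77 ± 0.26 (SD, n = 3) in high-fertile and -0.72 ± 0.012 (n = 3) in subfertile bulls, a difference of -0.051 (SE 0.22, 95% interval -0.54 to 0.44). The 3 subfertile bulls lay between HF5 and HF3. PEG10 was -0.07 ± 0.41 against 0.11 ± 0.29, a difference of -0.18 (SE 0.27, interval -0.79 to 0.43), and IGF2R 0.19 ± 0.23 against 0.38 ± 0.30, a difference of -0.19 (SE 0.24, interval -0.74 to 0.35). The groups overlapped for all 3 genes, and over all regions 2.99% had groups that did not. In the limma fit over all 737 regions the adjusted p was 0.999863 for each of them and unadjusted p was 0.819, 0.525 and 0.445 for SGCE, PEG10 and IGF2R. That fit called 0 of 737 regions (0%), 6 had an unadjusted p under 0.05 (0.814%), and the median difference of all regions was -0.08.

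With the scan date as a block the differences were -0.09 (SE 0.20) for SGCE, 0.018 (SE 0.18) for PEG10 and -0.06 (SE 0.18) for IGF2R. The limma fit with the block called 0 regions as well. With the slide as a block in place of the date, the differences were again -0.051 for SGCE, -0.18 for PEG10 and -0.19 for IGF2R. Each slide held high-fertile and subfertile bulls in equal number, so this block could not change the differences, and no conclusion is drawn from it. That fit also called 0 regions. Among the bulls scanned first (2 high-fertile against 1 subfertile) SGCE differed by 0.0063, PEG10 by -0.07 and IGF2R by 0.031. Among those scanned later (1 against 2) the differences were -0.18, 0.11 and -0.14. The sign was not the same on both dates in any of the 3 genes, but the test of the difference between dates gave a limma adjusted p of 0.994 for each of them.

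Single probes told the same. The group difference was above 0 at 4 and below 0 at 2 SGCE probes, above at 6 and below at 15 PEG10 probes, and above at 1 and below at 2 IGF2R probes. None of the 30 was called by limma over 110686 probes (0% of all probes were called) and none had an unadjusted p under 0.05, against 1.84% of all probes. The widest differences were at PEG10 probe 10 (-0.68, SE 0.49), where HF2 alone stood at -1.59, at PEG10 probe 25 (-0.63, SE 0.41) and at SGCE probe 2 (-0.62, SE 0.35). The groups did not overlap at 1 of the 30 probes, SGCE probe 5, where the 3 high-fertile bulls were all above the 3 subfertile ones. Over all tested probes 5.78% had groups that did not overlap.

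Between scan dates PEG10 was the one gene of the 3 called, while SGCE overlapped. PEG10 was -0.28 ± 0.10 (SD, n = 3) on the first date and 0.31 ± 0.06 (n = 3) on the later dates, without overlap, a difference of 0.59 (SE 0.18, limma adjusted p = 0.0413 over all regions, with the fertility group in the fit). Of all 737 regions, 14% were called higher and 6.78% lower on the later dates, 35.7% had later bulls all above the first ones, and the median difference was 0.17. IGF2R was 0.07 ± 0.14 and 0.50 ± 0.13, also without overlap, with a difference of 0.41 (SE 0.18, limma adjusted p = 0.141). SGCE was -0.70 ± 0.23 and -0.79 ± 0.11, with overlap, a difference of -0.11 (SE 0.20, limma adjusted p = 0.707). The PEG10 call depended on the processing: the difference was 0.14 (limma adjusted p = 0.624) after loess within arrays and 0.35 (0.170) when arrays were centred on the tested probes. The call was also lost without HF5, SF1, SF4 or SF5 in turn, with an adjusted p of up to 0.322, while the difference over all single-bull omissions stayed between 0.50 and 0.69. The IGF2R difference was 0.051 after loess and 0.17 with the other centring. The date moved with the share of probes whose immunoprecipitated signal was above background, and its part in the result was not tested.

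Probe by probe, the later dates were higher at 20 of 21 PEG10 probes, 3 of 3 IGF2R probes and 1 of 6 SGCE probes. Over all tested probes the median difference was 0.27, so most probes on the array were higher on the later dates. No member probe was called for the date, where 6.5% of all probes were called higher and 1.58% lower. PEG10 probe 4 came closest, with a difference of 0.97 (SE 0.25, limma adjusted p = 0.0510). The later bulls were all above the first ones at 14 of 21 PEG10 probes and 2 of 3 IGF2R probes, against 31.9% of all probes. They were all below the first ones at SGCE probe 1, and the share of all probes with that order was not counted. The unnamed neighbours of PEG10 averaged -0.25 on the first date and 0.27 later, and those of SGCE -0.57 and -0.79. Among the former, 63 of 100 had later bulls all above the first ones and 1 had them all below. Among the latter, 2 of 43 had them all above and 9 all below.

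The gene regions whose levels followed each member most closely over the 6 arrays, by Pearson's correlation among 737 regions, were DYSF (0.99), ZNF521 (0.99) and SLC13A5 (0.98) for PEG10. For SGCE they were MKX (0.98), BCL11A (0.97) and LPAR3 (0.96), and for IGF2R EEF1A2 (0.96), WIPI1 (0.95) and P4HTM (0.95). The points share arrays and scan dates: DYSF, for example, was -0.20, -0.13 and -0.08 in HF2, HF3 and SF4 and 0.24, 0.23 and 0.18 in HF5, SF1 and SF5.

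Other genes were taken from lists and fitted with at least 1 tested probe (4286 genes, of which limma called 0, 0%, with 34 at an unadjusted p under 0.05 and a median difference of -0.02). Of 27 genes listed with a maternal germline mark, 12 were named on the array and 9 tested, 4 with a difference above 0 and 5 below, with a median of -0.05. The lowest unadjusted p in limma among those beside IGF2R and PEG10 belonged to DIRAS3, a growth-restraining small GTPase (difference 0.38, SE 0.30), and HERC3 (-0.50, SE 0.41), each with 1 tested probe. Of 8 genes with a paternal mark, which sperm carries in other mammals, 5 were tested, with a median difference of -0.27, and 2 had a region. RTL1, another retrotransposon-derived placental gene, stood at 0.08 ± 0.14 (SD, n = 6) and RASGRF1, a Ras exchange factor, at -0.15 ± 0.09. In mean level SGCE was below both of these regions and IGF2R above both, which was not tested. The tested paternally marked genes without a region stood at 0.32 (IGF2, 1 tested probe), 0.05 (H19, 1) and -0.09 (MEG3, 2). IGF2 was thus above IGF2R, at 0.28. Neighbours of PEG10 gave 2 tested genes of 11 (DLX5 and COL1A2, differences -0.05 and -0.02) and those of IGF2R 0 of 10. In the pathways of the members, 3 of 14 sarcoglycan and dystrophin complex genes were tested, with a median difference of 0.14, and 3 of 20 genes of the insulin-like growth factor and mannose 6-phosphate receptor pathway, with 0.07. In each of these lists limma called 0 genes higher and 0 lower between the fertility groups.

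Marker genes of other cells that semen can hold were read only as DNA methylation, since no RNA was measured. Of 7 leukocyte genes 3 were tested (median difference -0.11, levels -0.26 to -0.05), of 7 epithelial genes 4 (-0.07, levels -0.39 to 0.56) and of 6 germ cell genes 2 (0.38, levels -0.17 to -0.01). None was called between the groups. Between scan dates, 7.3% of the 4286 genes were called higher and 12.8% lower on the later dates. Among the markers DDX4, a germ cell RNA helicase read by 1 probe, was lower on the later dates by limma (difference -1.71, adjusted p = 0.0256). The other germ cell gene, HSPA2, had a difference of 0.67 (limma adjusted p = 0.0777). None of the 3 leukocyte and 4 epithelial genes was called for the date, and RUNX3 came closest, with a difference of 0.70 (limma adjusted p = 0.0635). PEG10 itself had a limma adjusted p of 0.0995 for the date in this fit. The part of other cells in the levels of SGCE, PEG10 and IGF2R, or in the date difference of PEG10, was not tested, and these probes cannot check the sperm label.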

How the data were processed

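The deposited scanner tables hold spot intensity on a linear scale, extracted with Agilent Feature Extraction 10.7.3.1 and dye-normalised, per the file headers (SF1 with its CGH protocol, the other 5 arrays with its ChIP protocol). Their deposited log10 ratio, red over green, was not used for levels. A match to the scanner values showed that the deposited series table gives this ratio as log2, without centring, and it served as an alternative. From processed signals, log2(IP/input) was centred on each array's median over 177440 non-control probes, with no loess or quantile step. Flagged non-uniform spots were left out of tests. Groups and scan dates were compared with limma 3.58.1 (R 4.3.3, with version 1.17.8 of data.table). The fits used lmFit and eBayes, 2-sided, with Benjamini-Hochberg over all regions or probes and a threshold of 0.05. The group fit was also run on simulated data. Those data had no scan-date effect and larger changes than the members showed between fertility groups, so that run checks the code only. Levels within bulls used exact sign-flip permutations, adjusted over all 737 regions in place of the planned 3 genes. The number of arrays limits the precision. The labels do not name separate collections, so n counts bulls with 1 array each. Members and gene lists were chosen with earlier results of these data known. All probes of the 3 genes are described. Other genes named are the 4 of lowest unadjusted p in a list, or the 3 regions most like a member. The RTL1, RASGRF1, IGF2, H19, MEG3, DLX5, COL1A2, DDX4, HSPA2 and RUNX3 values were chosen after they were seen. RefSeq (NDDB_SH_1) gave names and gene order only.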

Additional observations from a re-analysis of the deposited data

How the results depend on the processing

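Between high-fertile and subfertile bulls, no alternative brought SGCE, PEG10 or IGF2R past the threshold. The SGCE difference, -0.051, turned to 0.052 without the input filter, 0.025 with only probes whose immunoprecipitated signal was above background, 0.023 centred on tested probes, 0.043 after loess, 0.0063 on the first date alone and 0.10 with unnamed neighbours added. The PEG10 difference turned to 0.018 with the date as a block and 0.11 on the later dates alone, and that of IGF2R to 0.031 on the first date alone. Leaving out 1 bull at a time gave -0.20 to 0.029 for SGCE, -0.41 to -0.021 for PEG10 and -0.36 to -0.063 for IGF2R. On the later dates alone 4 regions and 34 probes were called, with no member region among them, and leaving out a bull called 0 to 0. The PEG10 date difference kept its sign and lost its call without the filter (0.54), centred on tested probes (0.35), after loess (0.14), in the series table (0.56) and with neighbours added (0.53), and ran from 0.50 to 0.69 without 1 bull. That of IGF2R was called with normexp (offset 50) background correction (0.48) and ran from 0.32 to 0.50 without 1 bull, and that of SGCE from -0.21 to -0.0025. Relative to the median region, PEG10 (0.22) turned to -0.14 without the filter and was 0.074 with normexp. SGCE (-0.55) was -0.84 and -0.31 and IGF2R (0.48) 0.25 and 0.24 under the same settings. Without 1 bull SGCE ran from -0.61 to -0.50, IGF2R from 0.42 to 0.55 and PEG10 from 0.16 to 0.27; 5 bulls cannot give p below 0.0625. Causes were not tested. Neighbours and lists with 1 tested probe were added after seeing the data. The labels pair no high-fertile bull with a subfertile one, so no paired analysis was made. The number 5 occurs in HF5 and SF5, which the labels give as separate samples of different groups.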
